A study of Homo sapiens with 6 samples.

Results

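MAP kinases and dual-specificity phosphatases were followed at the level of their messenger RNA. The members were the protein-coding genes named MAPK, MAP2K, MAP3K, MAP4K or DUSP with a number, a choice made on names alone, and they came to 67 of the 58735 genes in the count table. There were 13 MAPK, 7 MAP2K, 18 MAP3K, 5 MAP4K and 24 DUSP genes. RNA-seq counts were available for 6 libraries of RPE-1 cells, an established human cell line from retinal pigment epithelium. All cells, controls included, carried CETN2 tagged with GFP and a PLK4 gene driven by a doxycycline-inducible (rtTA) promoter, and all were given doxycycline at 1 µg/mL. In 3 libraries (siSON) the cells had received an siRNA against SON, a splicing factor found in nuclear speckles, and in 3 libraries (siControl) a scramble siRNA. There was thus no library without PLK4 induction, and the values describe SON depletion in cells that overexpress PLK4. Whether the replicates were separate cultures is not stated, so the p-values measure the spread between these libraries, which may be technical.

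A MAP kinase cascade is a relay of protein kinases. A MAP4K or a small GTPase such as Ras turns on a MAP3K, the MAP3K phosphorylates a MAP2K, and the MAP2K phosphorylates a MAP kinase on a threonine and a tyrosine of its activation loop. Growth factors act mainly through the ERK branch, while stress and inflammatory signals act mainly through the JNK and p38 branches, and many dual-specificity phosphatases remove both phosphates and so end the signal. Several of these phosphatases are themselves early targets of ERK signalling, which makes them part of its negative feedback. Phosphorylation was not measured here, and mRNA levels do not show kinase activity.

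SON, the targeted gene, stood at 295, 313 and 284 CPM in siControl and at 67.96, 69.96 and 65.00 CPM in siSON. Here CPM are counts over library totals adjusted by TMM factors, which were 1.061 to 1.08 in siControl and 0.9256 to 0.9446 in siSON. SON kept 22.8% of its mean level. Its log2 change, here and below siSON over siControl, was -2.14 (SE 0.06) with an adjusted p of 6.78e-10 by the edgeR quasi-likelihood test with Benjamini-Hochberg adjustment over all genes tested, the test used for every single gene below; the exact 2-sided permutation test gave p = 0.1, the smallest that 3 against 3 libraries allow. Libraries held 54572365 to 69764836 counts. Of 12 retinal pigment epithelium markers, TYR, DCT and TTR had 0 counts in all 6 libraries and RPE65 did not exceed 0.258 CPM, and the 12 summed to 54.8 to 57.6 CPM in siControl and 74.5 to 83.8 CPM in siSON. The 6 tested markers moved apart: MITF, OTX2 and BEST1 rose by 0.52, 0.82 and 0.62 on the log2 scale, and PMEL, RDH5 and LRAT, all at low levels, fell (log2 fold changes of -3.36, -3.57 and -2.62). Among 10 markers of other cell types, 4 (CD3E, HBB and RBFOX3 among them) had 0 counts throughout and the sum was 2.72 to 3.71 CPM in siControl and 0.964 to 1.43 CPM in siSON; the part of these shifts in the results below was not tested. The 9 epithelial and mesenchymal markers summed to 15900 to 18500 CPM in siControl and 16200 to 17700 CPM in siSON, nearly all of it from VIM and FN1, which did not pass, while CDH1 and EPCAM were near 0. Among the others KRT18, CDH2 and KRT8 rose by 1.48, 0.66 and 0.34, and COL1A1 and KRT7 fell (-1.85 and -0.76). Within each group replicates 2 and 3 were closest to each other (chi-square per degree of freedom of 7.16 and 7.18), against 18.3 to 26.1 for pairs with replicate 1.

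The sites through which the relay works are written in the coding sequences of the members. The first set shows the activation loop of 9 conventional MAP kinases, which identifies each branch and shows how alike the closely related genes are whose reads had to be told apart. Capitals mark the threonine codon, the branch-specific middle codon and the tyrosine codon; the sequences come from the GENCODE 29 transcripts on GRCh38 and run 5′ to 3′ on the coding strand. The middle codon is for glutamate in the ERK group, for proline in the JNK group and for glycine in the p38 group.
MAPK3 (ERK1): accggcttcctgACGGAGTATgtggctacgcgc
MAPK7 (ERK5): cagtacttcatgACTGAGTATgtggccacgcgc
MAPK8 (JNK1): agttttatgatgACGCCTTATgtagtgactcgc
MAPK9 (JNK2): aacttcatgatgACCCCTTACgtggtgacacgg
MAPK10 (JNK3): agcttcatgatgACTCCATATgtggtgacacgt
MAPK11 (p38 beta): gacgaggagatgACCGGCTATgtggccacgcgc
MAPK12 (p38 gamma): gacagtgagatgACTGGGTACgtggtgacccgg
MAPK13 (p38 delta): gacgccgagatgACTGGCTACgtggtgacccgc
MAPK14 (p38 alpha): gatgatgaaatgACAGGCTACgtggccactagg

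The loop was looked for in each translated coding sequence as threonine, then glutamate, glycine or proline, then tyrosine, followed by the conserved threonine-arginine and tyrosine-arginine of the kinase fold. It was found in 11 of the 13 MAPK genes and not in the atypical kinases MAPK4 and MAPK6. Related genes shared most of their coding bases but no long identical stretch. MAPK9 and MAPK8 had 75.8% identical bases with no identical run above 29 bases, and MAPK11 and MAPK14 had 69.7% with none above 26.

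The second set shows the phosphatase signature, histidine-cysteine, any 5 residues and arginine, whose cysteine carries out the reaction. It is given for 6 of the DUSP genes described below, and capitals mark the codons from the histidine to the arginine.
DUSP1: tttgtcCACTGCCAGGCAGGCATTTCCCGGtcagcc
DUSP5: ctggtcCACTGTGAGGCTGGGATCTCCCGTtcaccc
DUSP6: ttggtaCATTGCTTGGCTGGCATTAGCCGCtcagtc
DUSP10: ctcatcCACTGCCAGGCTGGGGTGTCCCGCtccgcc
DUSP18: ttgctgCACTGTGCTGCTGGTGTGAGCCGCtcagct
DUSP22: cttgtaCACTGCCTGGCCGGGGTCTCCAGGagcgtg

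The signature was present in 22 of the 24 DUSP genes and was not found in DUSP27 and DUSP28. DUSP27 is described in general as a phosphatase relative without catalytic activity.

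Of the 67 members, 57 had enough counts to be tested, and 50 of these changed between siControl and siSON at an adjusted p under 0.05, 29 upwards and 21 downwards. The background was high: 71.7% of all 16591 genes tested passed the same threshold (35.2% higher, 36.5% lower), and 77.4% of the 13008 protein-coding genes did (40.3% higher, 37.1% lower), so the share of 87.7% among the tested members is to be read against those. With scaling by total counts alone 44 members were called beside 71.1% of all genes, and with cyclic loess 48 beside 70.4%. The groups did not overlap for 52 of the 57, where 75.1% of all genes tested did not overlap. The median log2 fold change of the tested members was 0.22, against -0.03 for all genes tested and 0.03 for protein-coding genes, and the median size of the change regardless of sign was 0.71, against 0.63 and 0.60. Changes of at least 2-fold were seen upwards in 11 members and downwards in 8, while the background was 8.72% of genes upwards and 20.5% downwards. The counts of called members include DUSP27 (upwards) and MAP2K6 (downwards), each tested only through the group where it was high. Together the members took 0.271% to 0.275% of all counts in the siControl libraries and 0.307% to 0.316% in the siSON libraries. The RNA came from bulk cultures, so fewer cells with a message and less of it in each cell cannot be told apart.

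**Figure D1:**
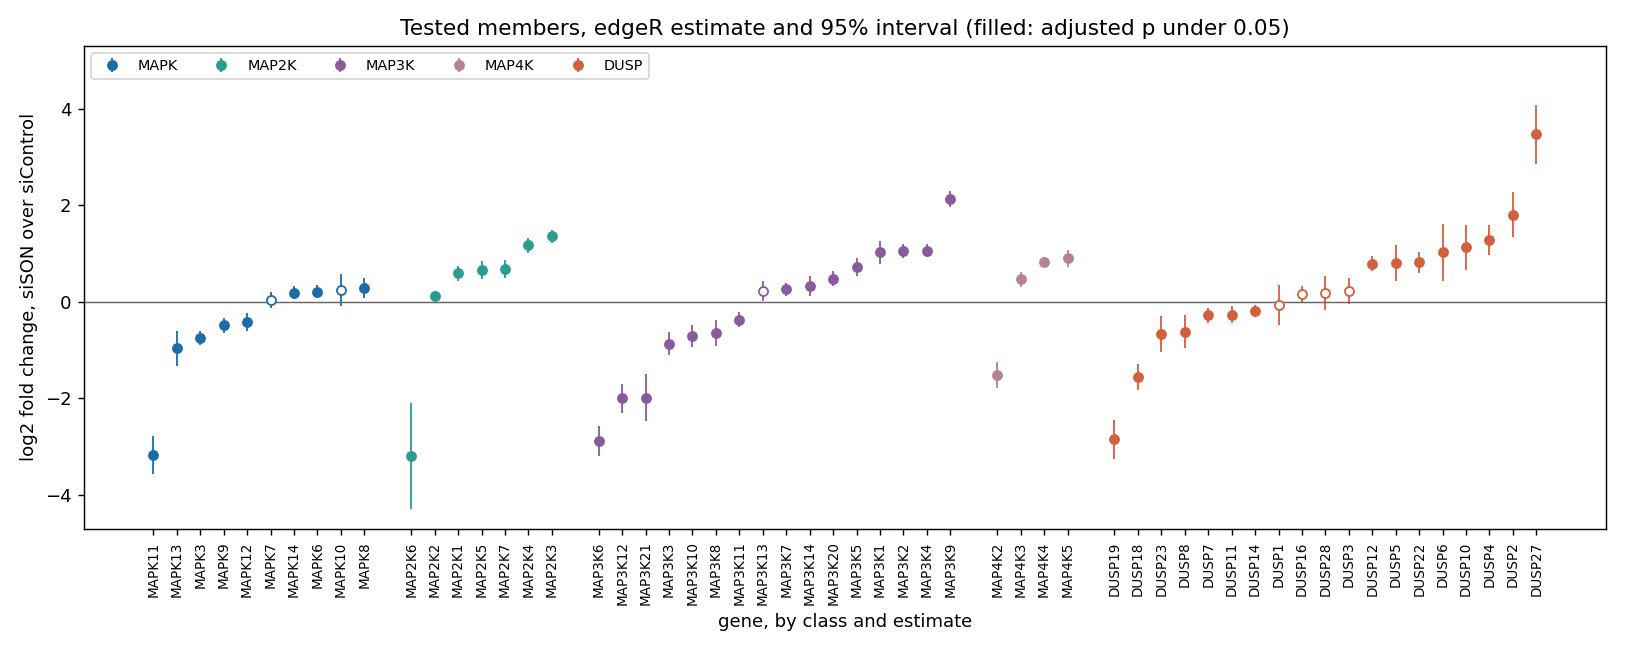
Log2 fold change (siSON over siControl, vertical axis) of the tested members described here, ordered by class and estimate, with 95% intervals from 3 libraries per group. Filled points passed an adjusted p of 0.05 and open points did not; 6 of the 7 MAP2K genes and 3 of the 4 tested MAP4K genes lie above 0, and the MAPK, MAP3K and DUSP genes lie on both sides.

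The members not tested were low in every library. MAPK4, MAP3K19 and DUSP21 had 0 counts in all 6 libraries, which allows a level of up to 3 counts per library (counting error only). Over raw library totals, without the TMM factors used for the other CPM, 3 counts were 0.0430 to 0.0550 CPM. MAPK15, MAP3K15, MAP4K1, DUSP13, DUSP15 and DUSP26 had at most 13 counts in any library. DUSP9, a cytoplasmic ERK phosphatase, had 14, 2 and 16 counts in siControl and 0 in each siSON library. Of those tested, DUSP27 passed the count filter through the siSON libraries alone and MAP2K6 through the siControl libraries alone, so a difference was built into their being tested.

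At the top of the relay, 3 of the 4 tested MAP4K genes rose and MAP4K2 fell. All 4 thus passed, where 71.7% of all genes tested and 77.4% of protein-coding genes did. MAP4K2 (germinal centre kinase), an activator of the JNK branch, was at 23.9, 24.5 and 27.2 CPM in siControl and at 8.94, 10.2 and 7.16 CPM in siSON, and the groups were far apart. Its log2 change was -1.52 (SE 0.12, adjusted p = 5.91e-07), which left 34.8% of its level. MAP4K5, of the same kinase group, was at 104, 90.3 and 89.3 CPM in siControl and at 195, 170 and 164 CPM in siSON. Every siSON library lay above every siControl library, with replicate 1 the highest of both groups, and the log2 change was 0.90 (SE 0.08, adjusted p = 1.31e-06). MAP4K3 and MAP4K4 rose by 0.47 and 0.83 on the log2 scale. The summed level of the class went from 431 ± 1.05 to 724 ± 4.82 CPM (SD, n = 3), of which MAP4K4 alone made up 274 and 487 CPM. MAP4K5 overlaps ATL1 on the other strand, and since the strand setting of the counting is not given in the sources used here, reads of overlapping genes may have been mixed. The same holds for DUSP1 and DUSP6 with an antisense RNA each, for MAP3K3 with STRADA and LIMD2, and for MAPK6 with LEO1. It also holds for MAPK7 with B9D1 and MFAP4, for MAPK10 with ARHGAP24 and PTPN13, for MAP3K13 with TMEM41A, and for DUSP28 with ANKMY1. An antisense RNA likewise overlaps each of MAP3K1, MAP3K4, MAP3K5, MAP3K14, MAP3K20, MAP2K7, MAP4K3, DUSP8 and DUSP19. Further members overlap other non-coding genes or pseudogenes.

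Among the 16 tested MAP3K genes, 8 rose, 7 fell and MAP3K13 did not pass. The share that passed was 93.8%, beside 71.7% of all genes tested and 77.4% of protein-coding genes. The median log2 fold change of these MAP3K genes was 0.24. Their range ran from -2.88 to 2.13, the widest of the kinase classes in the upward direction. MAP3K9 (MLK1), a mixed lineage kinase that feeds the JNK branch, had 15.6, 16.7 and 16.3 CPM in siControl and 70.7, 65.4 and 75.5 CPM in siSON. No other kinase among the members rose as far, and the libraries of each group lay close together: the mean was 4.36-fold higher, with a log2 change of 2.13 (SE 0.07, adjusted p = 2.23e-09).

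Other mixed lineage kinases fell. MAP3K12 (DLK), best known for stress signalling in neurons, was at 74.4, 76.9 and 72.1 CPM in siControl and at 14.8, 23.2 and 18.0 CPM in siSON, a log2 change of -2.00 (SE 0.13, adjusted p = 4.49e-07). The siSON libraries varied more than the siControl libraries, but the highest siSON value lay far below the lowest siControl value. MAP3K21 (MLK4) had 3.80, 4.70 and 4.50 CPM in siControl and 1.48, 1.01 and 0.767 CPM in siSON, a log2 change of -1.98 (SE 0.22, adjusted p = 9.02e-06). MAP3K10 and MAP3K11 fell by 0.71 and 0.37 on the log2 scale, and MAP3K20 (ZAK), a kinase that responds to stalled ribosomes, rose by 0.48, a call lost with cyclic loess (0.145, adjusted p = 0.0732). MAP3K13 had a log2 fold change of 0.22 (95% interval 0.01 to 0.43, adjusted p = 0.0559; with the replicate block 0.22, adjusted p = 0.0396). MAP3K12 overlaps PCBP2 on the other strand.

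Scaled by exonic length and summed, the 7 mixed lineage kinases stood at 39.9 CPM per kb in siControl and 38.6 CPM per kb in siSON, while their shares of that sum moved. MAP3K9 went from 3.27% to 14.8%, MAP3K12 from 23.4% to 6.05%, and MAP3K20, the most abundant of them per kb in both groups, from 34.9% to 50.1%.

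The other MAP3K subgroups with more than 1 tested gene held changes in both directions. In the MEKK group, MAP3K4, which acts on the JNK and p38 branches, had 27.3, 28.1 and 27.5 CPM in siControl and 60.03, 54.4 and 58.8 CPM in siSON, with a log2 change of 1.06 (SE 0.06, adjusted p = 7.06e-08). MAP3K1 and MAP3K2 rose by nearly the same amount, 1.03 and 1.05, and MAP3K3, which with MAP3K2 acts on the ERK5 branch, fell by 0.87. In siControl MAP3K3 held 64.7% of the length-scaled level of these 4 genes, and in siSON it held 32.7% and MAP3K4 33.7%. In the ASK group of oxidative stress sensors, MAP3K6 (ASK2) had 25.8, 25.6 and 25.6 CPM in siControl and 3.24, 4.48 and 2.75 CPM in siSON. This left 13.6% of its level (log2 fold change -2.88, SE 0.14, adjusted p = 1.88e-08), whereas its partner MAP3K5 (ASK1) rose by 0.72. MAP3K7 (TAK1), which relays TGF-beta and inflammatory receptor signals, was at 61.6, 68.7 and 68.4 CPM in siControl and at 78.7, 80.7 and 78.1 CPM in siSON. Its log2 change was 0.26 (SE 0.06, adjusted p = 0.00259), and it lost the call when libraries were scaled by total counts alone (0.06, adjusted p = 0.419) or by cyclic loess (0.06, adjusted p = 0.362). MAP3K8 (TPL2) fell by 0.65, and by 0.32 with cyclic loess. MAP3K14 (NIK) rose by 0.33, a call lost with scaling by total counts alone (0.13, adjusted p = 0.229).

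**Figure D2:**
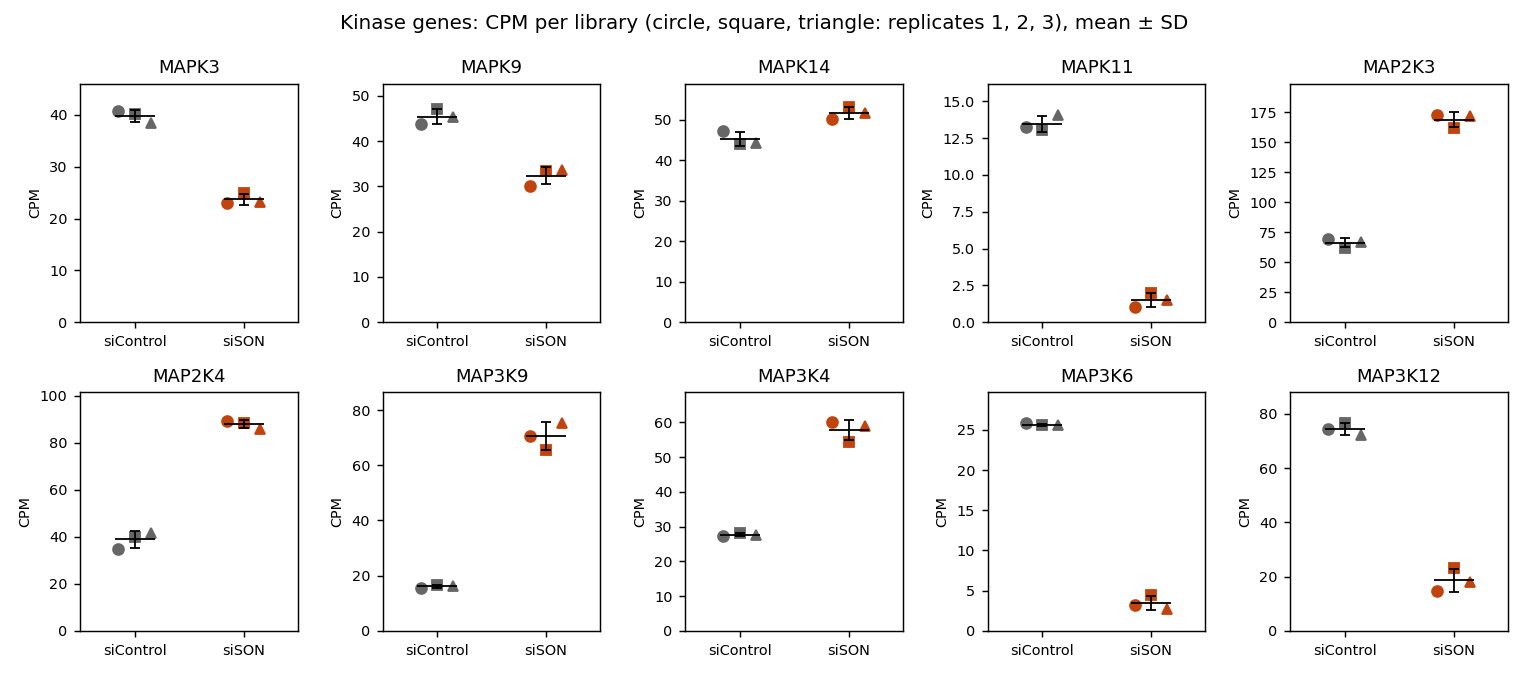
CPM (vertical axes, each from 0) of 10 kinase genes in the 3 siControl and 3 siSON libraries, with circles, squares and triangles for replicates 1, 2 and 3 and lines for the mean ± SD. MAP3K9, MAP2K3, MAP2K4, MAP3K4 and MAPK14 are higher in every siSON library, and MAPK3, MAPK9, MAPK11, MAP3K6 and MAP3K12 are lower in every siSON library.

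All 7 MAP2K genes passed the test, with 6 higher and MAP2K6 lower, where 71.7% of all genes tested and 77.4% of protein-coding genes passed. MAP2K6 passed the count filter through the siControl libraries alone, so a difference was built into its being tested. The summed level of the class went from 418 ± 3.68 to 651 ± 10.9 CPM (SD, n = 3). The largest rises were in the kinases of the stress branches. MAP2K3 (MKK3), an activator of p38, had 69.4, 62.0 and 66.8 CPM in siControl and 173, 162 and 172 CPM in siSON. The groups were wide apart, with a log2 change of 1.36 (SE 0.06, adjusted p = 8.70e-09). MAP2K6 (MKK6), the other activator of p38, was close to the limit of detection, with 0.674, 0.613 and 0.964 CPM in siControl and 0.138, 0.0776 and 0.0197 CPM in siSON (log2 fold change -3.19, SE 0.50, adjusted p = 1.35e-04). The last of these values rests on 1 count. MAP2K3 made up 99.74% of the length-scaled level of the pair in siControl and 99.99% in siSON.

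Both activators of JNK rose. MAP2K4 (MKK4) had 34.9, 40.1 and 41.6 CPM in siControl and 89.1, 88.4 and 85.9 CPM in siSON, with a log2 change of 1.18 (SE 0.07, adjusted p = 7.49e-08). MAP2K7 (MKK7) had 38.2, 42.3 and 40.5 CPM in siControl and 72.0, 64.0 and 57.4 CPM in siSON, with a log2 change of 0.68 (SE 0.08, adjusted p = 2.22e-05). Their summed length-scaled level went from 14.6 to 27.9 CPM per kb. MAP2K5, the activator of ERK5, rose by 0.67.

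The activators of ERK moved less. MAP2K1 (MEK1) had 67.8, 68.4 and 67.4 CPM in siControl and 92.4, 101 and 113 CPM in siSON (log2 fold change 0.59, SE 0.07, adjusted p = 1.86e-05). MAP2K2 (MEK2) had 194, 188 and 191 CPM in siControl and 213, 204 and 204 CPM in siSON, a log2 change of 0.12 (SE 0.05, adjusted p = 0.0443). That call held under only 2 of 15 alternatives, and the direction turned when libraries were scaled by total counts alone (-0.08) or by cyclic loess (-0.20), so no direction is taken from MAP2K2 and the class count becomes 5 higher and 2 lower with cyclic loess. MAP2K1 overlaps SNAPC5 on the other strand.

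Of the 11 tested MAPK genes, 4 rose, 5 fell and 2 did not pass. The share that passed was 81.8%, beside 71.7% of all genes tested and 77.4% of protein-coding genes. Scaling by total counts alone gave another split, 1 higher and 5 lower, or 54.5% beside 71.1% of all genes. In the ERK branch, MAPK3 (ERK1), on chromosome 16 at 30114105 to 30123506, had 40.7, 40.2 and 38.5 CPM in siControl and 23.0, 24.99 and 23.1 CPM in siSON. The groups lay far apart, 59.6% of its level was left, and the log2 change was -0.75 (SE 0.07, adjusted p = 1.76e-06).

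The JNK genes moved apart. MAPK9 (JNK2) had 43.9, 47.1 and 45.3 CPM in siControl and 30.2, 33.4 and 33.7 CPM in siSON (log2 fold change -0.49, SE 0.07, adjusted p = 6.11e-05). MAPK8 (JNK1) had 26.8, 28.1 and 31.5 CPM in siControl and 38.7, 36.0 and 30.8 CPM in siSON, where the lowest siSON library lay below the highest siControl library. Its log2 change of 0.29 (SE 0.09, adjusted p = 0.0171) fell to 0.14 (adjusted p = 0.126) without replicate 1 of both groups, was 0.21 (adjusted p = 0.0935) without siControl replicate 1 and 0.25 (adjusted p = 0.0837) without siControl replicate 2, and was 0.09 (adjusted p = 0.409) with scaling by total counts alone. MAPK10 (JNK3), a form best known from the nervous system, had a log2 fold change of 0.24 (95% interval -0.09 to 0.58, adjusted p = 0.17). Its siControl mean was 3.13 CPM, against 45.4 for MAPK9 and 28.8 for MAPK8. The merged exons of MAPK10 came to 42646 bases, against 8955 for MAPK9 and 9674 for MAPK8, which lowers its length-scaled share. MAPK10 made up about 1% of the length-scaled JNK level, 0.907% in siControl and 1.19% in siSON. MAPK9 held 62.5% of that level in siControl and 49.4% in siSON, and the sum was 8.12 and 7.34 CPM per kb.

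In the p38 group, 3 genes fell and 1 rose. MAPK11 (p38 beta), on chromosome 22 at 50263713 to 50270767, had 13.2, 13.1 and 14.1 CPM in siControl and 1.03, 1.98 and 1.48 CPM in siSON. It kept 11.1% of its level, the lowest share among the MAPK genes tested, with a log2 change of -3.18 (SE 0.18, adjusted p = 4.52e-08). MAPK13 (p38 delta) had 5.03, 4.58 and 4.11 CPM in siControl and 2.34, 2.75 and 1.93 CPM in siSON (log2 fold change -0.96, SE 0.16, adjusted p = 2.45e-04), and MAPK12 (p38 gamma), which overlaps HDAC10 on the same strand, fell by 0.41. MAPK14 (p38 alpha), the main form in most tissues, on chromosome 6 at 36027677 to 36111236, had 47.2, 44.0 and 44.3 CPM in siControl and 50.2, 53.1 and 51.6 CPM in siSON. The groups did not overlap, but the log2 change of 0.19 (SE 0.06, adjusted p = 0.014) became -0.004 (adjusted p = 0.952) with scaling by total counts alone and 0.06 (adjusted p = 0.372) with cyclic loess. Without siControl replicate 2 or 3 the adjusted p was 0.0935 and 0.0634. The call of MAPK14 was also lost when the count filter was a mean count of at least 50.

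The make-up of the p38 messages therefore differed between the groups whatever the scaling between libraries. MAPK14 held 42.4% of their summed length-scaled level in siControl and 69.2% in siSON, MAPK11 held 32.3% and 5.08%, MAPK12 held 21.2% and 22.8%, and MAPK13 held 4.09% and 2.98%. The sum went from 15.5 to 10.9 CPM per kb.

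**Figure D3:**
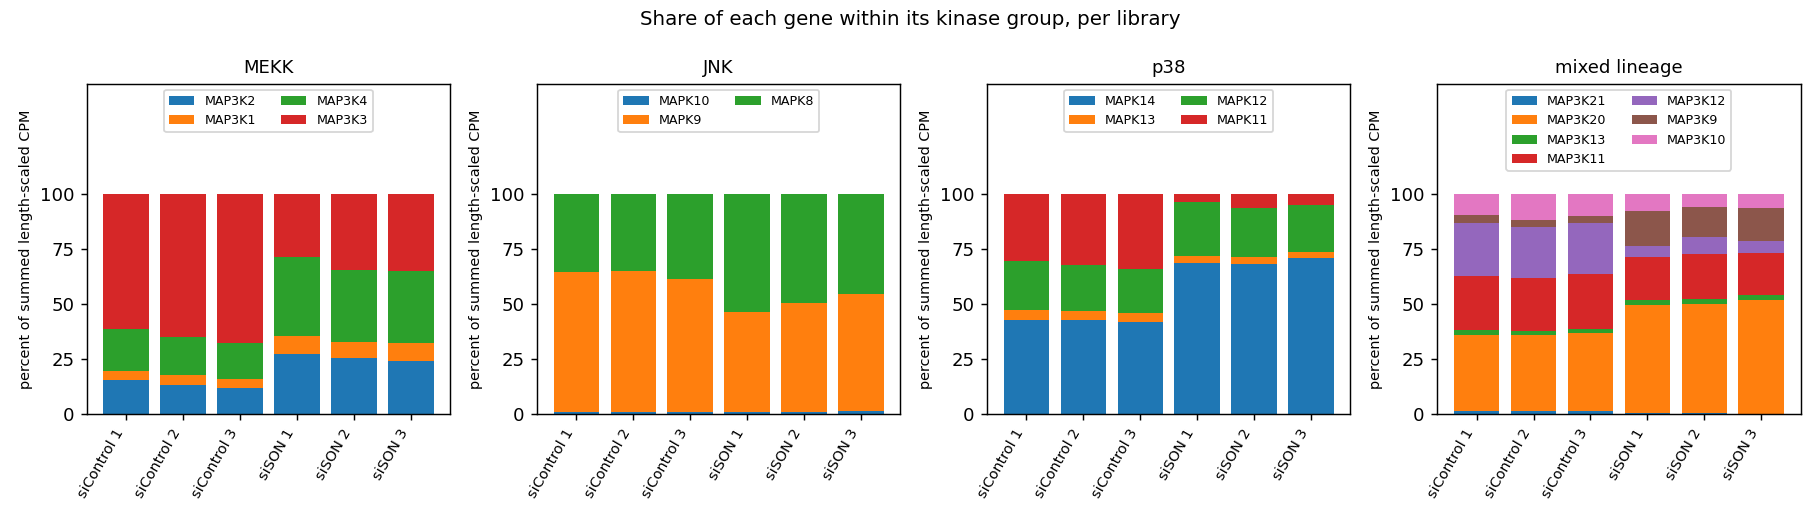
Share of each gene (vertical axis, percent) in the summed length-scaled CPM of 4 kinase groups, with 1 bar for each of the 6 libraries. MAP3K3 goes from 64.7% to 32.7% of the MEKK group and MAPK11 from 32.3% to 5.08% of the p38 group in the group means, and the bars of a group resemble each other.

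ERK5 and ERK3 showed little. MAPK7 (ERK5) had 27.6, 24.9 and 24.7 CPM in siControl and 26.001, 25.2 and 27.9 CPM in siSON, which overlap, with a log2 fold change of 0.04 (95% interval -0.13 to 0.21, adjusted p = 0.677). MAPK6 (ERK3) rose by 0.21 (adjusted p = 0.00669) and had a log2 change of 0.02 (adjusted p = 0.803) with scaling by total counts alone and of -0.009 (adjusted p = 0.894) with cyclic loess.

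Pairs of kinases that act at the same step were compared by the log2 ratio of their length-scaled levels within each library. The ratio was lower in every siSON library than in every siControl library for each pair given here. Its sign depends on which gene of a pair is the numerator, so the shared direction over pairs is not a result. The difference (siSON minus siControl) was -0.77 for MAPK9 over MAPK8, -0.47 for MAP2K2 over MAP2K1, and -0.51 for MAP2K7 over MAP2K4. For MAP2K6 over MAP2K3 it was -4.99, which rests on 8, 4 and 1 counts of MAP2K6 in siSON, a gene tested through its siControl libraries alone. Each exact 2-sided permutation test gave p = 0.1, the smallest possible with 3 against 3 libraries, and 0.1 after Benjamini-Hochberg adjustment over the 5 pairs compared, so none could pass a threshold of 0.05 in this design.

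Among the 19 tested DUSP genes, 8 rose, 7 fell and 4 did not pass. The share that passed, 78.9%, was close to the 77.4% of protein-coding genes, beside 71.7% of all genes tested. With cyclic loess 10 rose and 5 fell, again 78.9%, beside 70.4% of all genes. Of the 4 inducible phosphatases of the nucleus, 3 rose and DUSP1 did not pass. DUSP4 (MKP-2), which acts on ERK and JNK, had 57.6, 45.2 and 44.6 CPM in siControl and 142, 101 and 115 CPM in siSON. All siSON libraries were far above all siControl libraries, and the log2 change was 1.277 (SE 0.14, adjusted p = 2.51e-05). DUSP5, a nuclear phosphatase specific for ERK, had 65.4, 45.7 and 46.7 CPM in siControl and 109, 74.6 and 90.7 CPM in siSON (log2 fold change 0.80, SE 0.16, adjusted p = 0.00188; 0.0588 with no count filter). DUSP6 (MKP-3), its cytoplasmic counterpart, had 42.8, 23.0 and 21.99 CPM in siControl and 74.99, 48.0 and 55.7 CPM in siSON (log2 fold change 1.03, SE 0.26, adjusted p = 0.00574). For DUSP6 the highest siControl library (42.8 CPM) was close to the lowest siSON library (48.0 CPM). Its call was lost without siSON replicate 1 (0.84, adjusted p = 0.122) and without siSON replicate 3 (1.08, adjusted p = 0.0505). It was also lost with no count filter.

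DUSP10 (MKP-5), which acts on JNK and p38, followed the same course, with 11.2, 8.07 and 9.49 CPM in siControl and 28.2, 16.8 and 17.7 CPM in siSON (log2 fold change 1.13, SE 0.20, adjusted p = 8.01e-04). In DUSP4, DUSP5, DUSP6 and DUSP10 replicate 1 was the highest library of both groups. With DUSP3 these were the members in which replicate 1 exceeded the mean of the other replicates by at least 0.3 on the log2 scale in both groups, 5 of 57 (8.77%), where 5.82% of all genes tested did so. Without replicate 1 of both groups the log2 fold changes were 1.24 for DUSP4, 0.82 for DUSP5, 1.18 for DUSP6 and 0.94 for DUSP10, all with adjusted p under 0.05.

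DUSP1 (MKP-1), the phosphatase best known as an early stress and growth factor response gene, did not pass. It had 87.8, 72.3 and 78.9 CPM in siControl and 101, 55.9 and 72.1 CPM in siSON, so that the siSON libraries spread to both sides of the siControl libraries. The log2 fold change was -0.06 (95% interval -0.47 to 0.35, adjusted p = 0.771), and it was -0.30 (adjusted p = 0.0468) without siSON replicate 1. DUSP2 (PAC1), the last of the nuclear inducible group and chosen after its values were seen, rose at a low level, from 0.817, 1.05 and 0.669 CPM to 2.93, 2.56 and 3.36 CPM (log2 fold change 1.81, adjusted p = 1.53e-05).

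**Figure D4:**
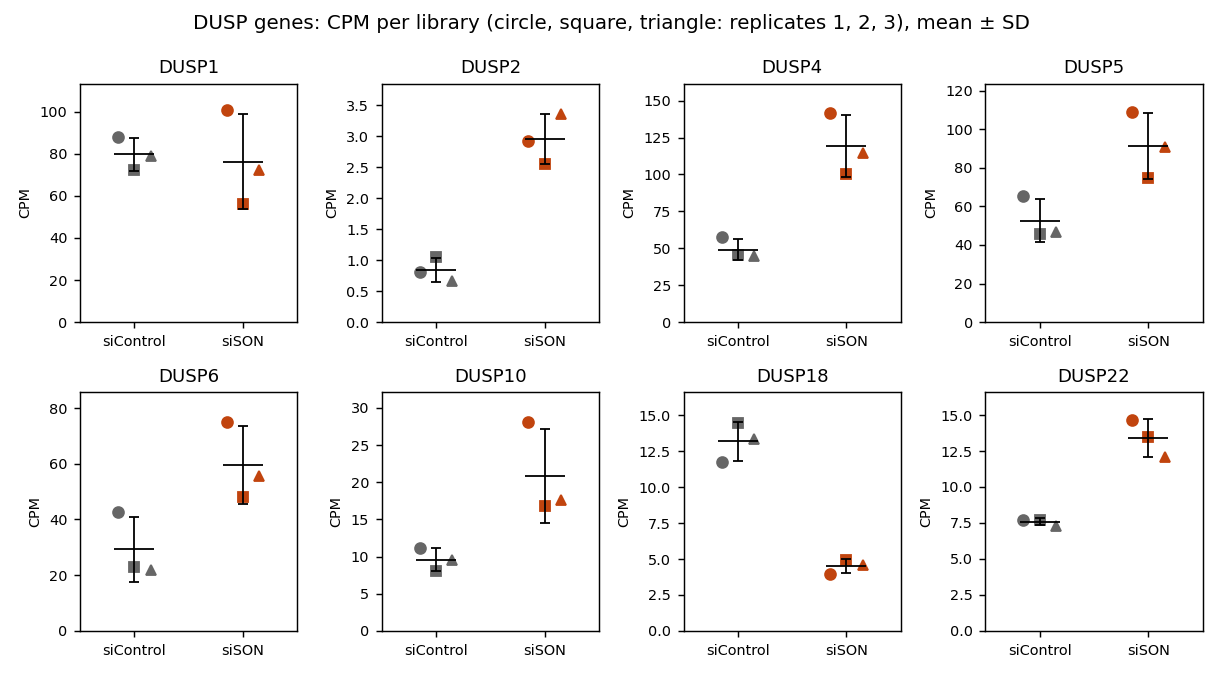
CPM (vertical axes, each from 0) of 8 DUSP genes in the 3 siControl and 3 siSON libraries, with circles, squares and triangles for replicates 1, 2 and 3 and lines for the mean ± SD. Replicate 1 (circle) is the highest library of both groups for DUSP1, DUSP4, DUSP5, DUSP6 and DUSP10; DUSP18 is lower in every siSON library and DUSP1 overlaps between the groups.

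The remaining phosphatases were mixed. DUSP18, an atypical form without the kinase-binding domain, had 11.8, 14.5 and 13.4 CPM in siControl and 3.98, 4.94 and 4.56 CPM in siSON, a log2 change of -1.56 (SE 0.12, adjusted p = 4.78e-07) that left 34.0% of its level; it overlaps the pseudogene AC003072.1 on the same strand and SLC35E4 on the other. DUSP22, an atypical form linked to JNK and T cell receptor signalling, had 7.74, 7.74 and 7.31 CPM in siControl and 14.7, 13.5 and 12.1 CPM in siSON, a log2 change of 0.82 (SE 0.10, adjusted p = 1.84e-05). The groups were clear of each other for both genes. DUSP19 and DUSP27, chosen after their values were seen, marked the ends of the range at low levels, with log2 fold changes of -2.85 from a mean of 4.37 CPM and 3.47 from a mean of 0.181 CPM; DUSP27 overlaps GPA33 on the other strand.

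The DUSP genes that did not pass, apart from DUSP1, all had estimates above 0. DUSP3 (VHR), an atypical phosphatase of ERK and JNK, had 119, 93.1 and 93.6 CPM in siControl and 140, 107 and 110 CPM in siSON, with a log2 fold change of 0.22 (95% interval -0.05 to 0.50, adjusted p = 0.126). Without replicate 1 of both groups it was 0.19 with an adjusted p of 0.00292, and with the replicate number as a block it was 0.22 with an adjusted p of 6.40e-04. With scaling by total counts alone it was 0.03 (adjusted p = 0.84). DUSP16 (MKP-7), a JNK phosphatase, had a log2 fold change of 0.16 (95% interval -0.02 to 0.33, adjusted p = 0.101), and DUSP28 had 0.18 (95% interval -0.18 to 0.53, adjusted p = 0.341). The other phosphatases that fell, DUSP7, DUSP8, DUSP11, DUSP14 and DUSP23, did so by 0.19 to 0.66 on the log2 scale. The calls of DUSP8 (-0.26, adjusted p = 0.159) and DUSP23 (-0.30, adjusted p = 0.111) were lost with cyclic loess, and that of DUSP14 without siSON replicate 2 (-0.14, adjusted p = 0.0629). DUSP12, of the atypical group, rose by 0.79.

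The genes around the relay were described from 7 lists. All listed genes are protein-coding, and 77.4% of protein-coding genes tested passed (40.3% higher, 37.1% lower). Each share below is to be read against those values as well. In the list of kinases of the relay with other names, 10 of 11 tested (90.9%) passed, 3 higher and 7 lower, beside 71.7% of all genes tested. TNIK, a kinase of the MAP4K group, rose (log2 fold change 0.93, SE 0.08, adjusted p = 1.65e-06) and its relative MINK1 fell (-0.73, SE 0.07, adjusted p = 4.51e-06). BRAF and ARAF, kinases at the head of the ERK branch that were chosen after their values were seen, were higher by 0.63 and lower by 0.50.

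Of 16 genes of Ras and its regulators, 12 (75%) passed, 7 higher and 5 lower, beside 71.7% of all genes tested, and with scaling by total counts alone 6 were higher and 8 lower. RRAS had 59.1, 63.0 and 62.7 CPM in siControl and 20.3, 21.9 and 21.5 CPM in siSON (log2 fold change -1.54, SE 0.06, adjusted p = 6.79e-09). NRAS, a classical Ras GTPase, had 43.2, 40.9 and 41.3 CPM in siControl and 80.8, 82.6 and 79.6 CPM in siSON (log2 fold change 0.95, SE 0.06, adjusted p = 5.87e-08). The groups lay far apart in both genes.

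Of 9 inhibitors of the ERK branch, 7 (77.8%) rose and none fell, beside 35.2% of all genes tested that rose and 71.7% that passed in either direction, with a median log2 fold change of 0.42, and with each other scaling tried 6 or 7 rose and none fell. SPRY2, which blocks receptor signals to Ras, had 23.9, 18.2 and 17.4 CPM in siControl and 76.2, 47.5 and 55.6 CPM in siSON, again with replicate 1 highest in both groups (log2 fold change 1.59, SE 0.18, adjusted p = 3.79e-05). PEBP1, an inhibitor of signalling from RAF kinases to the MAP2K step, had a log2 change of 0.42 (SE 0.05, adjusted p = 1.42e-05). The members of this list that did not pass were SPRY3 (0.34, adjusted p = 0.0618) and SPRED3 (-0.01, adjusted p = 0.96).

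Of 19 tested scaffolds and adaptors, 13 (68.4%) passed, 7 higher and 6 lower, beside 71.7% of all genes tested, and with scaling by total counts alone 5 were higher and 10 lower. The JNK scaffold MAPK8IP1 (JIP1) had 19.8, 20.3 and 21.7 CPM in siControl and 5.88, 7.41 and 6.87 CPM in siSON (log2 fold change -1.62, SE 0.10, adjusted p = 9.65e-08), and MAPKBP1, another JNK-binding protein, fell by 1.07. Of 11 kinases that MAP kinases activate, 10 (90.9%) passed, 4 higher and 6 lower, beside 71.7% of all genes tested. RPS6KA1 (RSK1), an ERK substrate, had 26.4, 28.1 and 30.3 CPM in siControl and 2.81, 4.25 and 3.42 CPM in siSON, which left 12.4% of its level (log2 fold change -3.02, SE 0.13, adjusted p = 9.05e-09). MAPKAPK2 (MK2), a p38 substrate, had 60.4, 55.1 and 61.7 CPM in siControl and 139, 144 and 146 CPM in siSON (log2 fold change 1.276, SE 0.06, adjusted p = 1.26e-08). The related RSK genes RPS6KA2 and RPS6KA3, chosen after their values were seen, were higher by 0.85 and 0.78.

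Of 28 transcription factors and early response genes of the MAP kinase branches, 18 (64.3%) passed, 13 higher and 5 lower, a smaller share than the 71.7% of all genes tested. MEF2D, a target of p38 and ERK5, rose by 0.96 (SE 0.06, adjusted p = 6.26e-08) and JUND fell by 0.88 (SE 0.05, adjusted p = 6.04e-08). The immediate early genes FOS, JUN and EGR1, chosen after their values were seen, overlapped between the groups, with log2 fold changes of 0.12 (SE 0.27), 0.06 (SE 0.14) and -0.24 (SE 0.61). EGR1 ranged from 15.4 to 45.8 CPM within siControl and from 10.02 to 40.4 CPM within siSON, with replicate 1 highest in both. Other genes that respond to ERK, also chosen after their values were seen, gave more rises than falls. FOSL1, ETV4 and ETV5 rose by 1.157, 0.98 and 0.63, CCND1 fell by 0.61, and IER3 (-0.18) and PHLDA1 (0.27) did not pass. In the same list, of which 5 genes fell, IER2, EPHA2, FOSL2, ETS1 and ETS2 rose by 0.94, 0.67, 0.54, 0.86 and 0.44. ATF3, a stress response factor, fell by 1.27. Of 8 tested phosphatases of other families that act on MAP kinases, 5 (62.5%) passed, 3 higher and 2 lower, beside 71.7% of all genes tested, among them the catalytic subunits of protein phosphatase 2A, PPP2CB and PPP2CA, with log2 fold changes of 0.54 (adjusted p = 2.44e-05) and 0.42 (adjusted p = 4.43e-05).

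Gene structure was set beside the changes because SON acts in splicing. The count table does not show which introns were removed, so this is a description of annotated transcripts, 1 for each gene. Members with a median intron under 500 bp, a limit chosen after the values were seen, numbered 13, of which 8 fell, 2 rose and 3 did not pass. Of the 44 with longer introns, 27 rose and 13 fell. Protein-coding genes at large showed a like split, with 61.2% lower and 22.7% higher among 2117 genes with short introns and 32.2% lower and 44.3% higher among 10582 with longer ones.

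Related kinases that moved apart differed in this respect in the p38 group. MAPK11, MAPK12 and MAPK13, which fell, have medians of 192, 203 and 257 bp, against 4805 bp for MAPK14. The rise of MAPK14 was lost with scaling by total counts alone and with cyclic loess. MAPK3, which also fell, has a median of 323 bp. The ASK group showed the same order, with 223 bp for MAP3K6, which fell, and 3229 bp for MAP3K5, which rose. In the MEKK group the order was reversed. MAP3K3, which fell, has 2936 bp, and MAP3K1, MAP3K2 and MAP3K4, which rose, have 1105, 1708.5 and 1654 bp. There were exceptions in both directions: MAP2K7 (126.5 bp) and DUSP2 (116 bp) rose, and MAPK9 (2958 bp) was among the 13 members with longer introns that fell. The mixed lineage kinases that fell included MAP3K12 (193 bp) and MAP3K21 (3755 bp), and MAP3K9 (1930 bp) rose. Across the 57 tested members Spearman's rho between log2 fold change and median intron length was 0.258, and it was 0.246 across 12695 protein-coding genes; the points share the same 6 libraries, and the log2 fold change also went with transcript GC content (rho -0.204 and -0.206) and with mean expression level (0.33 and 0.338).

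**Figure D5:**
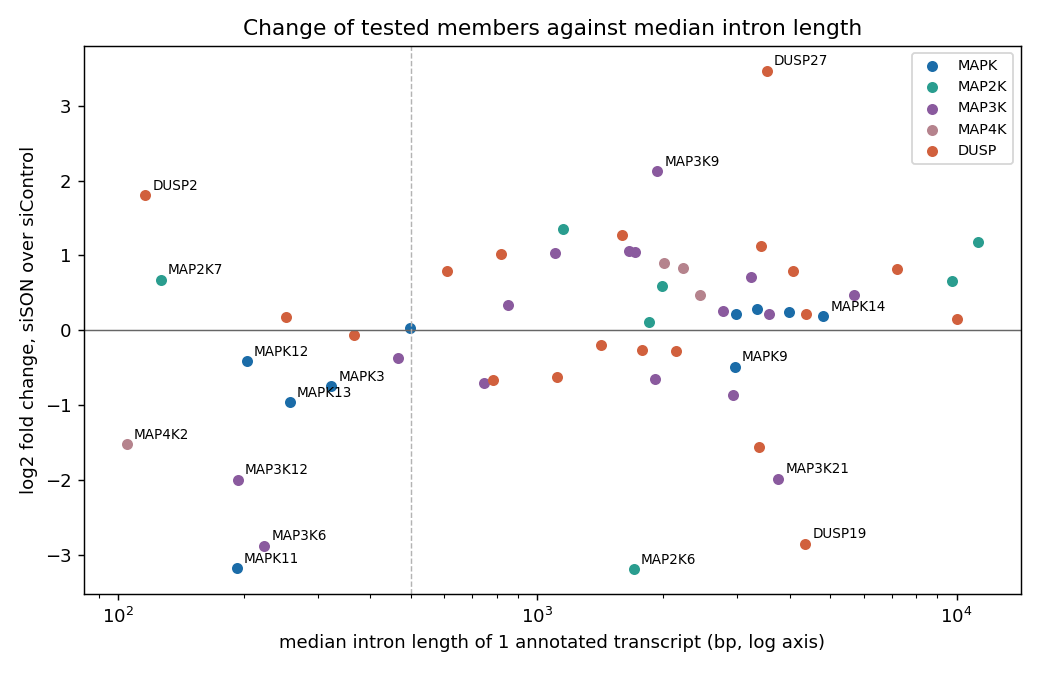
Log2 fold change (siSON over siControl, vertical axis) against the median intron length of 1 annotated transcript (bp, log axis) for the tested members described here, coloured by class, with a dashed line at 500 bp. Left of the line 8 genes fell and 2, MAP2K7 and DUSP2, rose; right of it both directions occur.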

How the data were processed

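Gene-level RNA-seq was analysed in 6 libraries, 3 siSON and 3 siControl. The authors deposited raw read counts per gene, whole numbers and not normalized, with 1 column per library. Per the submitters' processing notes, the genome build was hg38 and the tools were cutadapt 1.16, STAR 2.5.2a, featureCounts 1.6.2 and DESeq2 1.28.1; strand and multi-mapping settings are not given in the sources used here, so counts of overlapping or closely related genes are uncertain. All 58735 gene identifiers matched GENCODE 29 (GRCh38), as did 99.51% of names, and positions, exons and coding sequences were taken from it.

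Testing used edgeR 4.0.16 (R 4.3.3): filterByExpr with a minimum count of 10, TMM scaling, and robust quasi-likelihood tests of siSON against siControl without further terms. P-values were adjusted by Benjamini-Hochberg over all 16591 genes tested, and an adjusted p under 0.05 was called a change. CPM use TMM-scaled totals, and length-scaled levels are CPM per kb (1000 bases) of merged exons, which can exceed the expressed isoform. A level of 3 counts was 0.0430 to 0.0550 CPM over raw library totals, without the TMM factors used for the other CPM. This floor covers counting error only, since PCR copies cannot be recognised without molecular identifiers. The scripts were tested on simulated data in which few genes changed. That test cannot check the scaling between libraries here, where 71.7% of genes tested passed.

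Members and lists were chosen with earlier results of these data known. Genes named with full values were a fixed set of central kinases and phosphatases, the members with the largest changes in each class at a mean log2 CPM of at least 1, those at that level that did not pass, and the 2 genes of each list with the smallest adjusted p. Alternatives were the replicate number as a block, DESeq2 1.42.0, voom and cyclic loess in limma 3.58.1, RLE factors, scaling by total counts alone, other count filters and leaving out each library; leaving out replicate 1 of both groups was chosen after seeing the data. Some genes, and 1 of the 5 kinase pairs, are not reported here by name, though counts over members and lists include them.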

Additional observations from a re-analysis of the deposited data

How the results depend on the processing

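The count of 50 members called ranged from 44 to 52 over 15 alternatives. That of all genes ranged from 10226 (77.8% of 13136, mean count of at least 50) to 12604 (43.1% of 29256, no count filter). Under the same settings 83.9% and 78.1% of the tested members were called. Of the 50 members, 38 kept their call in each alternative that tested them (MAP2K6 was not tested at a mean count of at least 50). The calls lost under at least 1 alternative were those of DUSP5, DUSP6, DUSP8, DUSP14, DUSP23, MAP2K2, MAP3K7, MAP3K14, MAP3K20, MAPK6, MAPK8 and MAPK14. Scaling by total counts alone moved the median log2 fold change of all genes from -0.03 to -0.22 and their split from 5834 higher and 6054 lower to 4441 and 7351; the median of the tested members was then 0.02. Directions reversed for MAPK6 (-0.009 with cyclic loess), MAPK14 (-0.00428 with total counts alone) and MAP2K2 (-0.081 with total counts alone, -0.20 with cyclic loess, adjusted p = 0.00236); the cause was not tested. Same-numbered libraries deviated together only weakly (mean r 0.119, from 0.0461 to 0.194). Each of these r lay above all those for different numbers (mean -0.0595, from -0.138 to 0.0286). What the numbers stand for is not stated, and the main test did not take them as pairs. With the replicate block 52 members and 12313 genes (74.2%) were called, and DUSP3 (0.22, adjusted p = 6.40e-04) and MAP3K13 (0.22, adjusted p = 0.0396) were added. Depth limits MAP2K6, DUSP27 and the 10 members not tested.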
